A study of Homo sapiens with 4 samples.

Results

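The chromatin around ID1, ID2, ID3 and ID4 was examined for sites occupied by SMAD1 in the human embryonic stem cell (hESC) line H1, which has long been in wide use, before and after BMP4. Every SMAD1 peak of either condition lying within 100 kb of the body of one of these 4 genes (human genome build hg19) was taken, which gave 27 peaks of 12885 in the series. The untreated cells contributed 6 of 5203 peaks and the BMP4-treated cells 21 of 7682. Both groups were the same unmodified line, grown on Matrigel in mTeSR1 medium. The untreated group received no BMP4 (0 min), and the treated group received BMP4 at 50 ng/ml for 60 min. Each was profiled by chromatin immunoprecipitation and sequencing (ChIP-seq) with an antibody to SMAD1, against sheared input chromatin. The series holds 1 ChIP and 1 input sample per condition, and replicates had been merged before peaks were called, so each condition is 1 list. No value given here therefore has a replicate error, and the conditions could not be compared by a test. The lists hold no expression values, so the labelled cell type could not be checked against its markers.

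BMP ligands bind serine/threonine kinase receptors, which phosphorylate SMAD1 and its close relatives SMAD5 and SMAD8. The phosphorylated proteins join SMAD4, enter the nucleus and bind DNA at short GC-rich elements and at the letters GTCT. The ID genes (inhibitor of DNA binding) are among the best known direct targets of this route in many cell types. They encode small helix-loop-helix proteins without a basic DNA-binding region, which pair with basic helix-loop-helix transcription factors and keep them off DNA, and ID1 and ID3 are well known for restraining differentiation.

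The genes lie on 4 chromosomes. In hg19, ID1 runs from 30193086 to 30194318 on the plus strand of chromosome 20 and ID2 from 8822113 to 8824583 on the plus strand of chromosome 2. ID3 runs from 23884409 to 23886322 on the minus strand of chromosome 1 and ID4 from 19837601 to 19842431 on the plus strand of chromosome 6. In the RefSeq gene order the protein-coding neighbours are MCTS2 and COX4I2 for ID1, RNF144A and KIDINS220 for ID2, E2F2 and RPL11 for ID3, and RNF144B and MBOAT1 for ID4. A peak within 100 kb of an ID gene can lie as near or nearer to another gene, and the lists do not say which gene a site serves.

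The sequences just before the gene starts are shown because, in hg19, SMAD1 peaks reached into the last 250 bases before the start at ID1, ID2 and ID3, and none did at ID4. They are the 250 bases upstream of each RefSeq start (RefSeq, build GRCh38.p14), a later build than that of the peaks, so their coordinates are not those of the peaks. The ID1 sequence is chr20:31605039-31605288 on the plus strand, the ID2 sequence chr2:8681806-8682055 on the plus strand, the ID3 sequence chr1:23559502-23559751 on the minus strand and the ID4 sequence chr6:19837120-19837369 on the plus strand. Each is written 5′ to 3′ along the gene, with capitals marking GTCT or GGAGCC on either strand (AGAC and GGCTCC on the opposite one).
ID1: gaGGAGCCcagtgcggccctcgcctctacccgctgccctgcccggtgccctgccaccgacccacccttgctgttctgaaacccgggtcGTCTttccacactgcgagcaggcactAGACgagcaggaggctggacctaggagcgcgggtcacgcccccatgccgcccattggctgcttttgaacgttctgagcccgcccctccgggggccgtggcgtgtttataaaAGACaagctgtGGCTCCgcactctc
ID2: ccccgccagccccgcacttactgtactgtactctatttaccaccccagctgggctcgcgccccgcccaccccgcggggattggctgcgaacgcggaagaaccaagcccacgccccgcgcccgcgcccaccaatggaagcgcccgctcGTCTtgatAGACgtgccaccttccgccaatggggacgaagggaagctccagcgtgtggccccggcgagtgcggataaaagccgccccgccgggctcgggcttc
ID3: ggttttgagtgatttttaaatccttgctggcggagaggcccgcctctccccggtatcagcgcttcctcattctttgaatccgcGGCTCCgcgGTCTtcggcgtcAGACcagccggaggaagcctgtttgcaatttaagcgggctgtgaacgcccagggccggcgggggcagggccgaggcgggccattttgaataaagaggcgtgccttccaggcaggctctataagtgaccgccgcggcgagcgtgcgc
ID4: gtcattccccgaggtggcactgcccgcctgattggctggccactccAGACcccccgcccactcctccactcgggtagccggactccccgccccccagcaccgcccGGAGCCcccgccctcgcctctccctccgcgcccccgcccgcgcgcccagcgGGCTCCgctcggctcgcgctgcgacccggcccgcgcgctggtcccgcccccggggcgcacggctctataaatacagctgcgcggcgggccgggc

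All 4 stretches were rich in G and C, at 66.0% for ID1, 69.2% for ID2, 62.0% for ID3 and 78.8% for ID4, beside a median of 58.0% over 35116 RefSeq promoters. GTCT, the SMAD-binding letters, occurred 3 times before ID1, 2 times before ID2 and ID3 and 1 time before ID4. Of all promoters, 77.5% held it at least 1 time, 45.6% at least 2 times and 20.9% at least 3 times. GGAGCC, a GC-rich SMAD1 element, was found 2 times before ID1 and ID4 and 1 time before ID3 but not before ID2. It was present in 30.6% of promoters, and at least 2 times in 7.42%. GGCGCC, the palindromic form of that element, was in none of the 4 stretches and in 16.4% of promoters. The same element followed after 5 bases by GTCT was likewise in none of the 4, and in 0.0769% of promoters. GTCT was followed by AGAC before ID1 (bases -162 to -159 and -136 to -133 from the start), ID2 (bases -103 to -100 and -95 to -92) and ID3 (bases -158 to -155 and -146 to -143). The spacing differed from gene to gene. How many of all promoters hold this order was not counted, so it cannot be called unusual or shared for a reason. A match describes letters only, and no match says nothing about sequence outside these 250 bases.

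Peaks are described by 3 measures. The score is that of the authors' peak caller, read as 10 times −log10 of the peak's p-value, with a lowest listed value of 50. It grows with depth and peak width, and the depth of each library is unknown, so scores are placed by rank within their own list and not compared as fold changes. A partner is a peak of the other list that shares at least 1 bp with it. Intervals are 95% exact binomial (Clopper-Pearson) limits, which cover the number of peaks alone and treat peaks as independent.

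After BMP4, SMAD1 peaks were more numerous at ID1, ID2, ID3 and ID4 alike. ID1 had 4 untreated and 8 BMP4 peaks, ID2 had 1 and 3, ID3 had 0 and 8, and ID4 had 1 and 2. At ID1 the contrast depended on the distance limit, with 1 untreated and 7 BMP4 peaks within 50 kb and 7 and 8 within 200 kb. The sequence covered by peaks went from 3.61 to 12.2 kb at ID1, from 0.905 to 3.87 kb at ID2, from 0 to 8.72 kb at ID3 and from 1.01 to 2.31 kb at ID4. The mean peak width went from 902 to 1530 bp at ID1, from 905 to 1289 bp at ID2 and from 1009 to 1157 bp at ID4, and was 1090 bp at ID3 after BMP4. The untreated list is the shorter one, and whether the rise at the ID genes exceeds a difference in depth between the libraries was not tested. In bulk chromatin, a site occupied in more cells and a site occupied more often in each cell cannot be told apart.

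**Figure D1:**
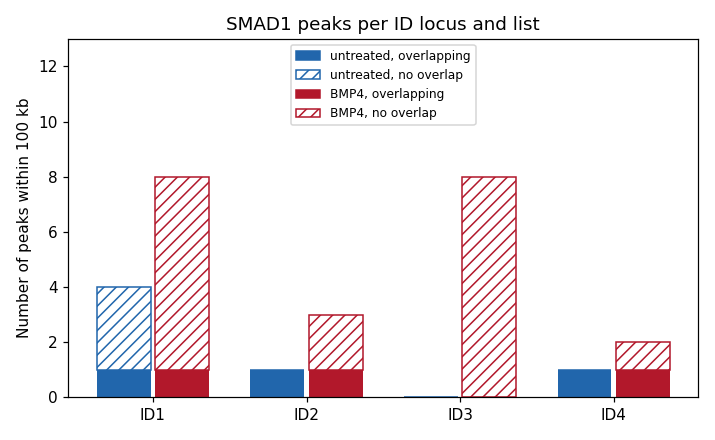
Number of SMAD1 peaks within 100 kb of each ID gene (vertical axis, from 0) in the untreated (blue) and BMP4 (red) lists, with filled parts for peaks that overlap a peak of the other list and hatched parts for peaks that do not. ID1 and ID3 hold 8 BMP4 peaks each, and ID3 holds no untreated peak.

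To see how unusual such numbers are, both lists were counted in 15468 fixed tiles of 200 kb, about the size of the gene windows. A tile held at least 8 BMP4 peaks, the number in the ID1 and ID3 windows, in 0.187% of cases, at least 3, as at ID2, in 2.78%, and at least 2, as at ID4, in 9.87%. At least 1 BMP4 peak was found in 34.1% of tiles and at least 1 untreated peak in 22.6%. At least 4 untreated peaks, as at ID1, were found in 0.924%. A tile with at least 8 BMP4 peaks and no untreated peak occurred 1 time (0.00646%), and this was the tile of ID3. The 8 peaks of ID1 were counted in a window centred on the gene, and no tile at ID1 reached 8 under either placing. With tiles shifted by 100 kb the share was again 0.00646%, but that tile lay elsewhere, since the ID3 peaks were then divided between neighbouring tiles. Tiles include sequence in which no read can be placed, and these shares are descriptions without a test.

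The BMP4 peaks gathered at the genes. Within 10 kb of a gene body lay 12 BMP4 peaks in 90.4 kb, or 13.3 per 100 kb, compared with 9 in the remaining 720 kb of the windows (1.25 per 100 kb) and 0.248 per 100 kb over all tiled chromosomes. The 12 were 5 at ID3, 3 each at ID1 and ID2 and 1 at ID4. Among fixed tiles of 20 kb, 4.56% held at least 1 BMP4 peak, 0.0660% at least 3 and 0.00712% at least 5. At least 5 with no untreated peak, as at ID3, were found in 0.000647%, which was 1 tile, that of ID3. With tiles shifted by 10 kb this share was 0.00259%, or 4 tiles, and none of them was at an ID gene. Untreated peaks within 10 kb numbered 2, 1 at ID1 and 1 at ID2 (2.21 per 100 kb, against 0.168 over all chromosomes), and 2.95% of these tiles held at least 1 untreated peak. In both lists, then, peaks were denser near the ID genes than over all chromosomes. Windows around other genes were not counted, so whether such densities are particular to the ID genes was not tested. Of the 21 BMP4 peaks, 14 were centred before the start of their gene and 7 after it.

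**Figure D2:**
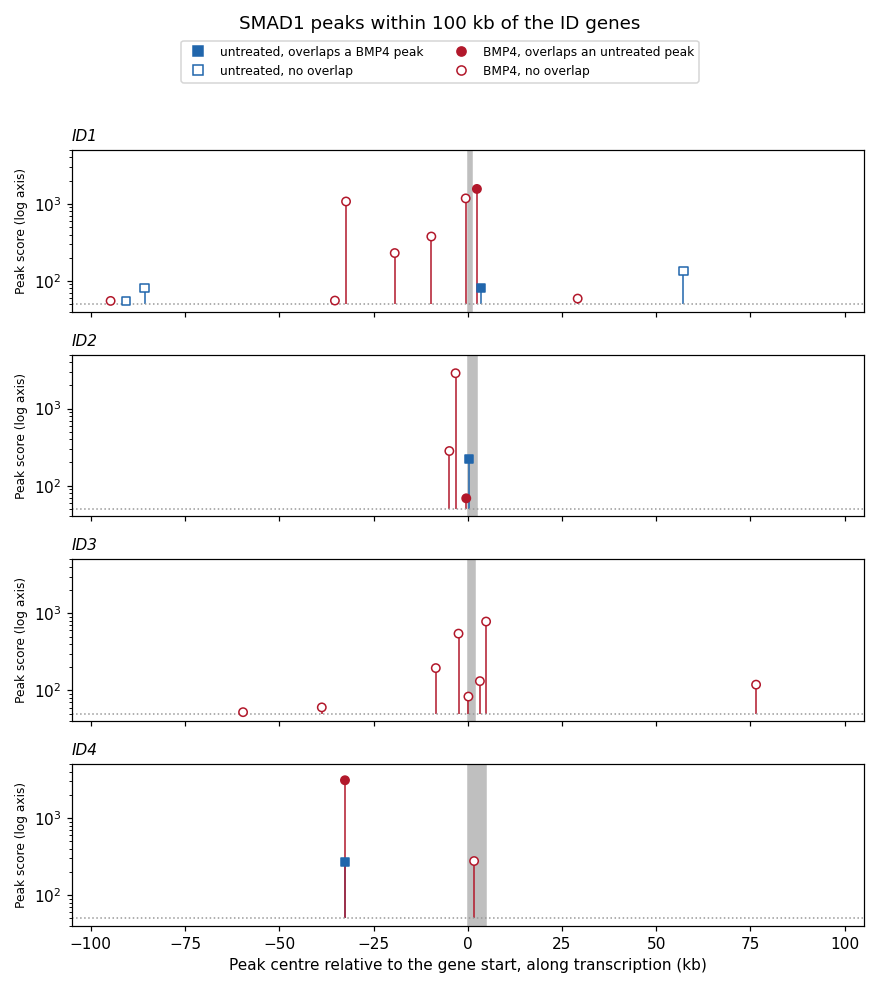
SMAD1 peaks at the 4 ID loci, with the peak centre relative to the gene start in kb along the direction of transcription (horizontal axis) and the peak score (vertical log axis). Squares are untreated and circles BMP4 peaks, filled where they overlap a peak of the other list, the grey band is the gene and the dotted line the lowest listed score of 50. BMP4 peaks cluster around ID1, ID2 and ID3, whereas the strongest peak at ID4 lies about 32.6 kb before the gene.

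The ID peaks of the BMP4 list differed from the whole list in score and width, but not in the share without a partner. Of the 21 BMP4 peaks, 18 had no untreated partner, or 85.7% (63.7 to 97.0), close to the 87.3% of the whole BMP4 list. A score of 100 or more was found for 14 of the 21, or 66.7% (43.0 to 85.4), compared with 20.2% of the list. Of these 14, 12 had no partner, or 85.7% (57.2 to 98.2), compared with 58.8% of all BMP4 peaks with such scores, a value inside the interval. A score of 1000 or more was found for 5 of 21, or 23.8% (8.22 to 47.2), compared with 4.18% of the list. Most of the 321 peaks of the list with such scores had an untreated partner, and peaks at tRNA genes were not removed. Widths of at least 1000 bp were found for 12 of 21, or 57.1% (34.0 to 78.2), compared with 17.3% of the list. The median BMP4 score at the ID loci was 230 and the median width 1128 bp, compared with 63.3 and 674 bp over the list.

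Part of this difference lay close to the genes. Within 10 kb, 10 of 12 BMP4 peaks scored at least 100 and the median was 329, whereas beyond 10 kb it was 4 of 9 with a median of 60.3. Scores of 1000 or more were found for 3 of 12 within 10 kb (25.0%, 5.49 to 57.2) and 2 of 9 beyond it (22.2%, 2.81 to 60.0). These intervals are too wide to tell whether the shares differ. Among BMP4 peaks with no untreated partner, 9 in the whole list scored at least 1000, and 3 of those 9 were at ID loci, 1 at ID2 and 2 at ID1. Of the 20 highest-scoring peaks of this kind, 5 were at ID loci, namely 1 at ID2, 2 at ID1 and 2 at ID3.

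The median score of the 6 untreated peaks also lay above that of their own list. Their scores ran from 55.3 to 274 with a median of 108, compared with 61.7 over the untreated list, and none reached 1000, a score that 4.42% of the untreated list held. A score of 100 or more was found for 3 of 6, or 50.0% (11.8 to 88.2), compared with 21.3% of the list, and 3 of 6 had no BMP4 partner (50.0%, 11.8 to 88.2), compared with 81.7%. Of the 3 with scores of at least 100, 1 had no partner (33.3%, 0.840 to 90.6), compared with 40.1% of such peaks in the list. A width of at least 1000 bp was found for 2 of 6, or 33.3% (4.33 to 77.7), compared with 23.1%. All these intervals include the value of the list. When the same number of peaks was taken from the top of each list (1110, down to a BMP4 score of 127), 13 BMP4 and 3 untreated peaks lay at the ID loci, and 11 of those 13 had no untreated partner.

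**Figure D3:**
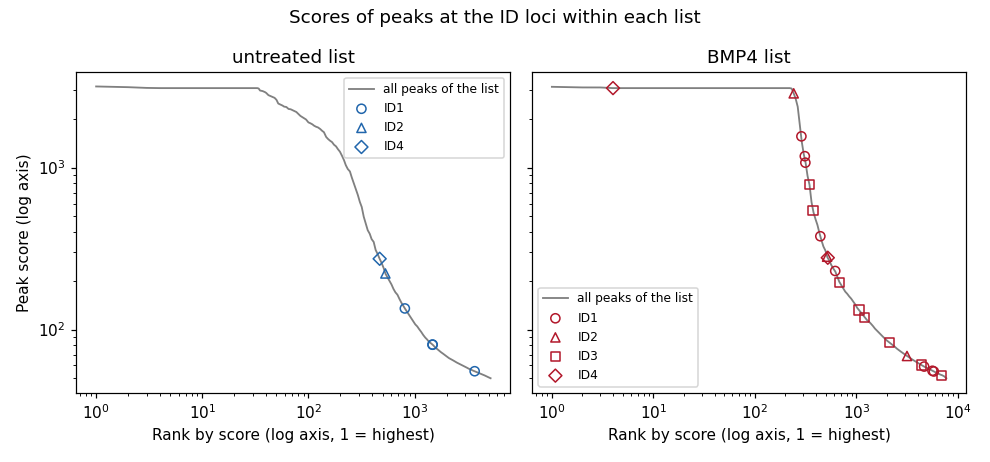
Score of each peak at an ID locus against its rank by score in its own list (both axes log, rank 1 being the highest score), with the grey line showing all peaks of that list. In the BMP4 list 5 of the 21 peaks stand at scores of at least 1000, whereas the highest of the 6 untreated peaks scores 274. The ID4 peak drawn at rank 4 shares its score of 3100 with all other peaks at that value.

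At ID1, SMAD1 peaks after BMP4 flanked the gene and reached far upstream. One peak covered the gene start, from 30191537 to 30193543 (1549 bases before the start to 457 bases after it, including 458 bases of the gene). It scored 1177, which placed it among the top 4.04% of the BMP4 list, and had no untreated partner, the nearest untreated peak being 2.51 kb away. After a gap of 447 bases came the widest peak of the 4 loci, from 30193991 to 30197040. It was 3050 bp wide, a width that 0.963% of BMP4 peaks reached, took in the last 328 bases of the gene and continued downstream, and scored 1561.

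This downstream site was also listed in untreated cells, where the peak was narrower (941 bp, from 30196054 to 30196994) and scored 80.5. It lay wholly inside the BMP4 peak, over 30.9% of its width, and began 1.74 kb past the gene end. The untreated peak stood at 28.5% from the top of its list and the BMP4 peak at 3.74%. The start of ID1 thus had a peak in the BMP4 list only, and its downstream flank had one in both.

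Further BMP4 peaks with no partner stood upstream of ID1. The nearest, from 30182455 to 30184388, lay 8.70 kb before the gene and scored 377 with a width of 1934 bp. The next, from 30173122 to 30174304, was 18.8 kb away with a score of 230. At 31.3 kb, from 30159770 to 30161818, a peak of 2049 bp scored 1073, the eighth highest score among all BMP4 peaks with no partner, where the peak at the ID1 start was the seventh. These 3 peaks form a row of strong sites before the gene, each at least 11.7 kb from any untreated peak.

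The rest of the ID1 window held weak peaks. In the BMP4 list these were a peak from 30157536 to 30158145 (score 55.6), one from 30097997 to 30098656 (score 55.0, 94.4 kb away) and one downstream from 30221878 to 30222622 (score 59.0, 27.6 kb away). The untreated list had peaks from 30102080 to 30102705 (score 55.3) and from 30107002 to 30107723 (score 80.7), 90.4 and 85.4 kb before the gene. It also had 1 peak from 30249643 to 30250960 (score 135), 55.3 kb past the gene, which was the strongest untreated peak of the window. That peak stood at 15.6% from the top of its list. It was the 1 untreated peak at the ID loci with a score of at least 100 and no partner. None of these 6 had a partner, although the distant BMP4 and untreated peaks before the gene were only 3.42 kb apart.

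At ID2, the untreated list had a peak over the gene start, and the peaks called in the BMP4 list all lay upstream of the start. The untreated cells had 1 peak, from 8821987 to 8822891, which covered 126 bases before the start and the first 779 bases of the gene. It scored 222 and stood at 10.2% from the top of the untreated list. In the BMP4 list the nearest peak, from 8821420 to 8822004, ended 109 bases before the start and scored 68.6, at 41.0% from the top. The 2 peaks shared 18 bp, or 3.08% of the BMP4 peak, so their pairing rests on their edges alone. Whether SMAD1 binding at the ID2 start itself changed was not tested.

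The main ID2 peak after BMP4 lay farther upstream, from 8817787 to 8819976, ending 2.14 kb before the gene. It was 2190 bp wide, scored 2877, and held the highest score of all 6708 BMP4 peaks with no untreated partner. The nearest untreated peak, the one over the ID2 start, was 2.01 kb away. Directly beside it, after 15 bases, a peak from 8816680 to 8817771 scored 282. No other peak of either list lay within 100 kb of ID2, so all its binding was called between 5433 bases before the gene start and 778 bases after it.

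At ID3, SMAD1 peaks were found in the BMP4 list only. The nearest untreated peak lay 132 kb from the gene, and 5 BMP4 peaks stood within 10 kb of it. The strongest, from 23880787 to 23882122, lay 2.29 kb past the gene end and scored 784, the thirteenth highest among BMP4 peaks with no partner. After 124 bases it was followed by a peak from 23882247 to 23883956, 453 bases from the gene end, which was 1710 bp wide but scored 132. A peak over the gene start, from 23885719 to 23886578, scored 83.3 and covered 256 bases before the start and 604 bases of the gene.

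Upstream of ID3 a peak from 23888207 to 23889334 scored 546 at 1.89 kb, and one from 23894179 to 23895422 scored 195 at 7.86 kb. The start of ID3 was therefore the weakest of its 5 near sites, flanked by stronger ones on each side. Farther away the list held a peak from 23809392 to 23810255 past the gene (score 119, 74.2 kb) and peaks from 23924560 to 23925540 and from 23945641 to 23946237 before it. These last 2 scored 60.3 and 52.3, at 38.2 and 59.3 kb, and were near the lowest listed score.

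ID4 differed from the other genes in where its strongest peak lay. A BMP4 peak from 19804355 to 19805692, 31.9 kb before the gene, scored 3100, a value held by 225 BMP4 peaks and reached by 2.97% of the list. Several untreated peaks share this exact value too, so differences among scores near it were not read as differences in strength. The untreated partner of the ID4 peak, from 19804559 to 19805567, scored 274 and stood at 9.01% from the top of its list. The untreated peak lay wholly inside the BMP4 peak and spanned 75.4% of it, the highest share among the 3 pairs at the ID loci. Within the gene, a BMP4 peak from 19838795 to 19839769 (1194 to 2168 bases after the start) scored 278 and had no partner, the nearest untreated peak being 33.2 kb away. No peak of either list covered the ID4 start.

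**Figure D4:**
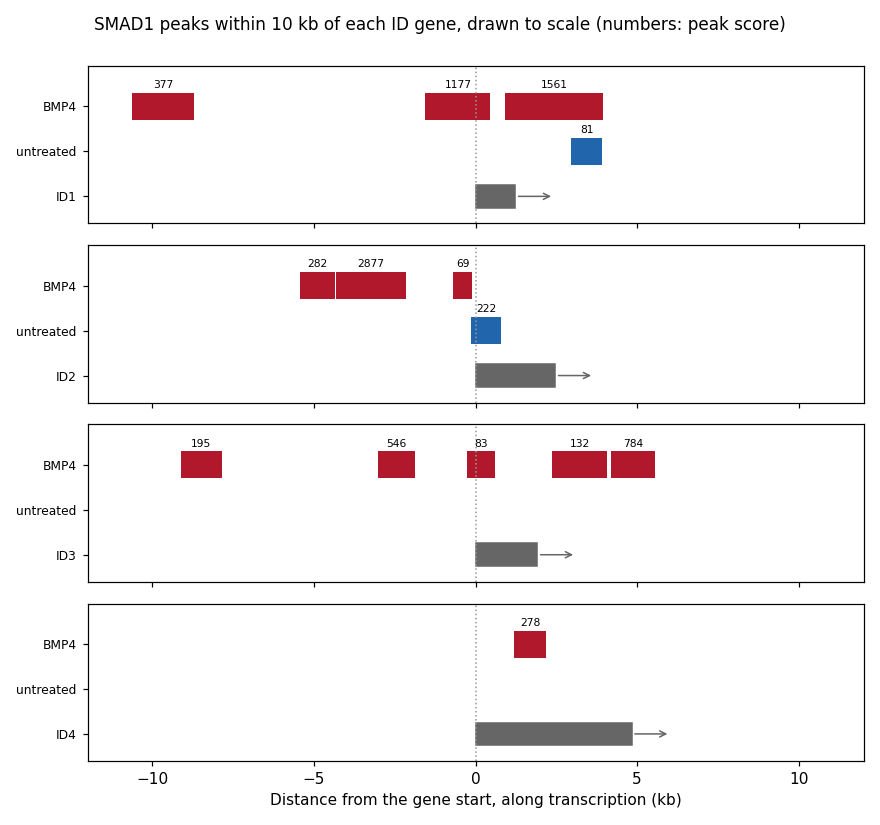
Peaks within 10 kb of each ID gene drawn to scale against the distance from the gene start in kb along transcription (horizontal axis), with BMP4 peaks in red, untreated peaks in blue, the gene in grey and the peak score above each peak. BMP4 peaks cover the starts of ID1 and ID3, an untreated peak covers the start of ID2, and the ID4 start is free of peaks.

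The gene starts thus differed among the 4 genes. A BMP4 peak covered the first base of 2 of them, ID1 with a score of 1177 and ID3 with a score of 83.3, and an untreated peak covered that of 1, ID2. With any peak within 1 kb of the start counted, the BMP4 list had 2 at ID1, 1 each at ID2 and ID3 and 0 at ID4. At all 4 genes the highest BMP4 score lay away from the start, at 2.43 kb after it for ID1 and 4.87 kb after it for ID3, and at 3.23 kb before it for ID2 and 32.6 kb before it for ID4 (distances from peak centres). At ID1 this rests on how the region was split into peaks. The highest-scoring ID1 peak began 905 bases after the start, 447 bases from the peak over the start. Merging neighbours at most 1 kb apart joins both into a site of 5504 bp that covers the start. The gene models behind these positions are those of hg19. They are longer than the RefSeq models used for the sequences by 11 bp at ID1, 65 bp at ID2, 338 bp at ID3 and 3 bp at ID4. A start may therefore be placed elsewhere, by an amount that the lengths alone do not give. The difference in length is largest at ID3, where a peak with a low score lay over the start.

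In the 3 pairs, the BMP4 peak stood nearer the top of its list than the untreated peak did at ID1 and at ID4, and farther from the top at ID2. Over all 996 overlapping pairs the BMP4 peak stood nearer the top in 45.9%. The lists differ in length, the ID2 pair shares only 18 bp and the ID4 score is tied with others, so these places show no change at a site. Some BMP4 peaks stood close together. Of the 21, 6 had another BMP4 peak at most 1 kb away, compared with 4.48% of the list, and merging such neighbours left 18 sites.

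The limit of 100 kb that chose the peaks fell between the following ones. The outermost peak inside it was the BMP4 peak at 94.4 kb from ID1 (score 55.0), and the nearest peak outside it was an untreated one at 121 kb from ID1 (score 50.6). Outside it, the nearest peak to ID3 was an untreated one at 132 kb (score 109), the nearest to ID4 a BMP4 peak at 150 kb (score 67.5) and the nearest to ID2 an untreated one at 375 kb (score 74.5).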

How the data were processed

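SMAD1 ChIP-seq peak lists of H1 hESCs, untreated and after BMP4, were used. By the study's methods and the submitters' processing notes, the authors aligned reads to hg19 with BWA 0.7.5a, merged replicates and called peaks against input with MACS 1.4.2 at default settings. Per the files, each list gives the position and the score of each peak, and the authors state nonspecific enrichment at tRNA genes. No peak was removed here. Both lists are many times longer than the peak sets the study describes, and here the BMP4 list is the longer one, whereas the study describes more peaks in untreated cells, so the deposited lists may come from another run or filter. Input files were not used here apart from their part in peak calling.

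Gene bodies in hg19 were fixed with the rule that chose the loci, and strand and promoter sequences came from RefSeq (GRCh38.p14), where all 4 genes matched. No coordinate was converted between builds. The reference genome at hand was hg38, so peak sequences, exons and other genes of the pathway were not placed. Distances run between nearest ends. Every listed peak of the 27 is given, by a rule that named all peaks within 10 kb of a gene and up to 8 farther ones per gene. The genes, motifs and measures were chosen with earlier results of these data known. With 1 list per condition, no test was made. The distance and overlap steps were tested on simulated lists. Python 3.11.15, numpy 2.4.6, pandas 2.3.3, scipy 1.17.1 and matplotlib 3.10.9 were used. Alternatives changed the distance limit, the minimum score, the overlap that makes a partner, the length of the BMP4 list, the rule for a peak at a gene start and the placing of tiles.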

Additional observations from a re-analysis of the deposited data

How the results depend on the processing

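The number of untreated peaks at the ID loci was 2 with a distance limit of 10 kb, 3 with 50 kb and 11 with 200 kb, in place of 6, and the number of BMP4 peaks was 12 with 10 kb, in place of 21. With a minimum score of 100 in both lists, 3 untreated peaks remained, and the peaks with a partner fell from 3 to 1 in each list. Requiring 50% of both peaks to overlap also left 1 peak with a partner in each list, at ID4. Of the untreated peaks with a score of at least 100, 2 in place of 1 had no partner, both with the 50% overlap and with partners limited to scores of at least 100. Shifted tiles gave 9.26% in place of 9.87% with at least 2 BMP4 peaks. The number of BMP4 peaks with a score of at least 100 and no partner lay between 11 and 13 under every alternative run for it. Equal ranks, merged neighbours, the limit on partner scores and the tiles of 20 kb were chosen after seeing the data. In all, 137 alternative values were computed for 44 results, and 104 stayed within 1.5 times the reported count or length, or within the limits of the reported share. No paired analysis was possible because there is 1 list per condition and nothing was tested. A missing peak may mean a score under 50 or an effect of a filter that is not known. Whether a change at such a site could have been detected was not tested.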
